A study of Mus musculus with 10 samples.

Results

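Complement is the part of innate immunity that marks targets for uptake or lysis, and 9 of its genes were followed in microglia that lacked 1 or both copies of Trem2. They were chosen by name: the C1q chains C1qa, C1qb and C1qc, the components C3 and C4b, the peptide receptors C3ar1 and C5ar1, and the integrin chains Itgam and Itgb2. All 9 were among the 24033 gene names used, and all 9 passed the filter on low values described under the first comparison. Microglia, the resident macrophages of the brain, had been isolated with magnetic beads against CD11b from C57BL/6 mice aged 3 to 5 months. The groups were 3 knockout libraries (KO, Trem2-/-; library 6 from a female, 9 and 12 from males), 3 heterozygous libraries (Het, Trem2+/-; 5 and 11 female, 8 male) and 4 wild-type libraries (WT, Trem2+/+; 1 and 10 female, 4 and 7 male). Trem2 is a surface receptor through which microglia sense lipids, and the study asks whether losing 1 copy is enough to alter these cells. Nothing in the labels tells if 1 mouse or several gave each library, so the errors below measure the spread between libraries, which may be technical. CD11b is the product of Itgam, so 1 of the 9 genes encodes the protein by which the cells were selected.

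C1q is the recognition molecule of the classical pathway and is assembled from A, B and C chains in equal number. When it binds a surface, it activates proteases that cleave C4 and C2, and the enzyme formed from their fragments cleaves C3. C3 fragments left on the surface are bound by complement receptor 3, the pair of CD11b (Itgam) and CD18 (Itgb2), while the released peptides C3a and C5a act through C3ar1 and C5ar1. In the mouse brain, microglia are the main source of C1q, and C1q, C3 and complement receptor 3 take part in the removal of synapses during development.

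Values are RPKM, reads scaled to gene length and to the library total. Comparisons between genes also rest on the authors' annotation and read assignment, which are not known here. Library totals ranged from 17.31 to 44.29 megareads. KO libraries 9 and 12, Het library 11 and WT library 10 were the 4 deeper ones (36.48 to 44.29 megareads), and the other 6 lay between 17.31 and 22.1 megareads. Trem2 itself averaged 24.5 ± 3.52 RPKM in KO, 93.9 ± 9.98 in Het and 191 ± 31.1 in WT libraries (SD; n = 3, 3 and 4), in the order that the labels give. The 10 microglial markers were above 0 in every library and summed to between 9009 and 10819 RPKM. KO library 6 stood apart: all 11 neutrophil markers were highest there, and they summed to 2296 RPKM, against 103 to 379 RPKM in the other 9 libraries. KO libraries 9 and 12 came next, with sums of 369 and 379 RPKM. Het sums were 143 to 356 RPKM and WT sums 103 to 223 RPKM, so the KO sums stayed above the WT sums without library 6. Mmp8 and Elane did not follow the sums, while the other markers lay above every WT library in both. Mmp8 stood at 6.61 and 3.80 RPKM in KO libraries 9 and 12, against 2.08 to 7.31 RPKM in WT libraries. Elane stood at 0.0570 and 0.108 RPKM, against 0 to 0.236 RPKM. In library 6, S100a9 stood at 1040 RPKM and Ngp at 256 RPKM. The granule enzyme genes Mpo and Elane, which lay under 1 RPKM elsewhere, stood at 6.02 and 6.53 RPKM in library 6. Its microglial markers summed to 10819 RPKM, the highest of the 10. The other marker lists of the 10 libraries spanned 111 to 235 RPKM for 10 monocyte genes, 87.6 to 181 for 9 border macrophage genes, 32.9 to 57.9 for 9 astrocyte genes, 19.4 to 23.6 for 8 oligodendrocyte genes, 137 to 243 for 8 endothelial genes, 3.32 to 6.26 for 8 neuronal genes, 615 to 1728 for 6 choroid plexus genes and 2.91 to 5.20 for 8 lymphocyte genes. The fits were also run without library 6. In bulk RNA, fewer cells of a type cannot be told apart from less RNA per cell.

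The 9 genes covered a wide range of levels and together made up 0.872% to 1.02% of each library's reads. Averaged over the 10 libraries, C1qc (1860 RPKM) and C1qb (1845 RPKM) were highest and ranked 10 and 12 among all genes. Itgam (846 RPKM, rank 33), C3ar1 (185 RPKM), Itgb2 (130 RPKM), C5ar1 (76.7 RPKM) and C1qa (54.6 RPKM) followed. C3 (3.69 RPKM) and C4b (2.34 RPKM) were the lowest. Neighbours in this order had separate ranges over the libraries except for 3 pairs. C1qc exceeded C1qb in 7 of 10 libraries, C5ar1 exceeded C1qa in 10 of 10 although their ranges overlapped, and C3 exceeded C4b in 8 of 10. RNA of the C1q chains and of the receptors was thus above that of the substrates C3 and C4b in every library.

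**Figure D1:**
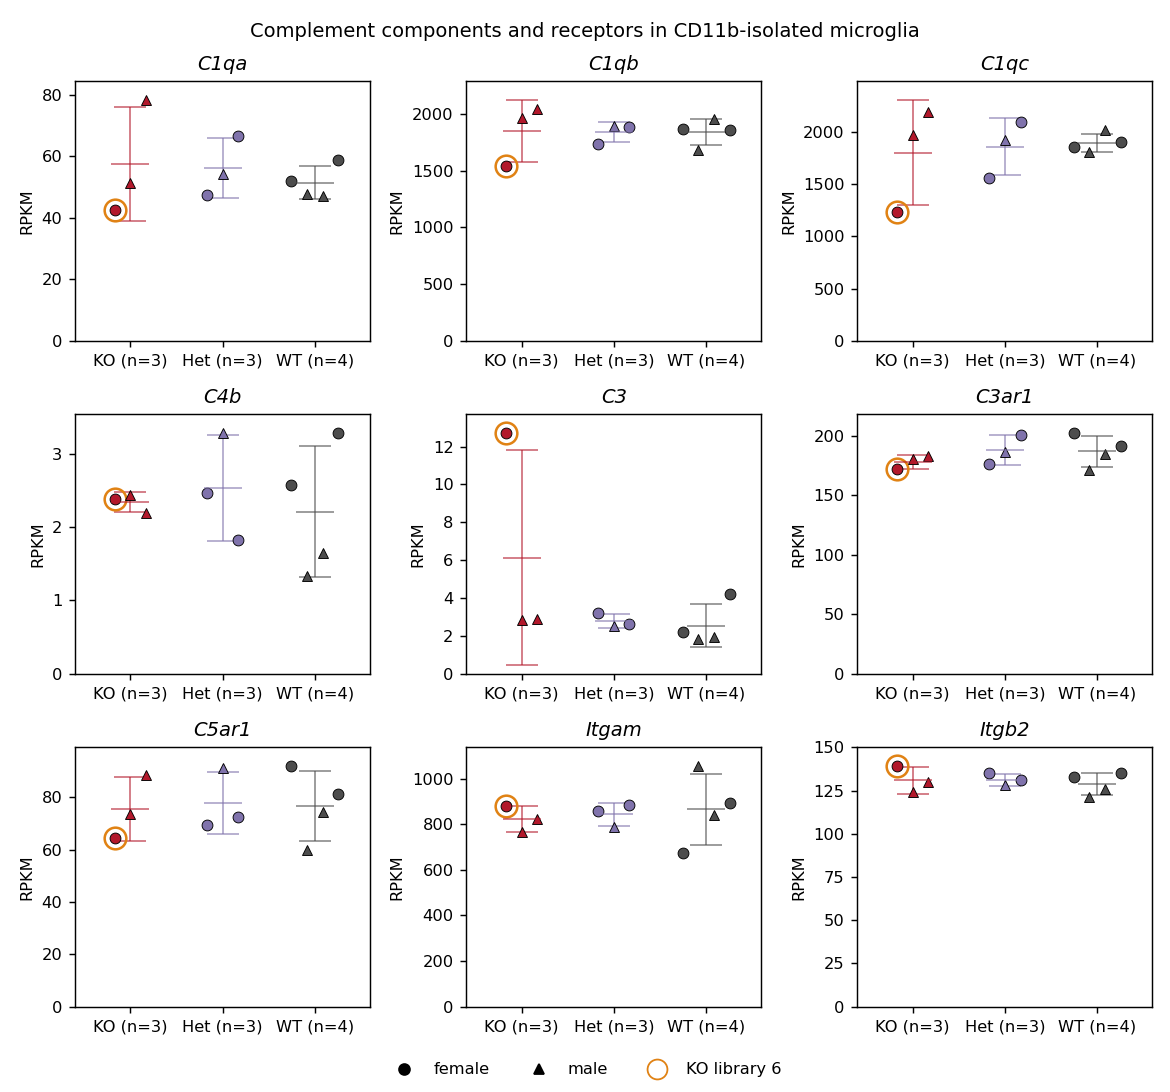
RPKM of the 9 complement genes in each library, by genotype, on linear axes from 0; circles are female and triangles male libraries, horizontal lines are means, bars are ± 1 SD (n = 3 KO, 3 Het and 4 WT), and the ring marks KO library 6. The genotypes overlap in every panel; KO library 6 is the highest point for C3 (12.7 RPKM) and the lowest for the C1q chains.

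The first question was whether the complete loss of Trem2 changes these genes, comparing KO with WT libraries. None of the 9 passed the test. The fit was limma on log2(RPKM + 0.5) with terms for genotype and sex, over the 13621 genes that reached 0.5 RPKM in 3 or more libraries, and it called 0 of the 9 at an adjusted p under 0.05, where 0.00734% of all genes tested were called, which is 1 gene, Trem2. At an unadjusted p under 0.05 there was 1 of 9, C3, against 5.13% of all genes. No member had KO and WT libraries that did not overlap, against 4.59% of all genes. The median log2 difference was -0.02 over the 9 genes and 0.03 over all genes tested.

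How firmly a change can be bounded differed between the genes. For Itgb2 the 95% confidence interval of the KO to WT ratio ran from 0.918 to 1.16 and for C3ar1 from 0.835 to 1.10, so changes of more than about these sizes lie outside the intervals. Intervals were wider for C1qb (0.806 to 1.20), C5ar1 (0.766 to 1.26), Itgam (0.766 to 1.20), C1qc (0.686 to 1.17), C1qa (0.804 to 1.45) and C4b (0.748 to 1.67). C3 had the only interval that did not include 1 (1.23 to 3.29). These ratios are on the scale of RPKM + 0.5, which understates changes of low genes such as C3 and C4b.

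**Figure D2:**
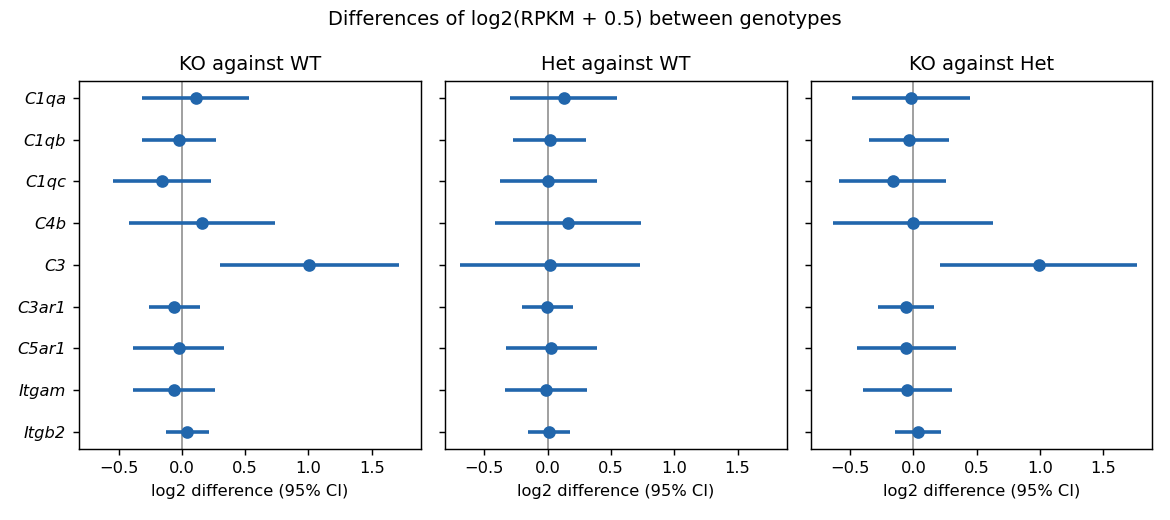
Differences of log2(RPKM + 0.5) between genotypes for the 9 genes, with points for the fitted difference and bars for its 95% confidence interval; the grey line marks 0. In the KO against WT panel the interval of Itgb2 is the narrowest (-0.12 to 0.21) and that of C3 is the one that lies above 0 (0.30 to 1.72), while in the Het against WT panel all 9 intervals include 0.

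The C1q chains were taken first. C1qb stood at 1541, 1966 and 2049 RPKM in KO libraries 6, 9 and 12, at 1738, 1894 and 1886 RPKM in Het libraries 5, 8 and 11, and at 1873, 1682, 1959 and 1865 RPKM in WT libraries 1, 4, 7 and 10. C1qc stood at 1234, 1979 and 2198 RPKM in KO, 1566, 1928 and 2099 RPKM in Het, and 1859, 1813, 2019 and 1906 RPKM in WT libraries, in the same order. C1qa, the third chain, stood at 42.7, 51.2 and 78.3 RPKM in KO, 47.5, 54.2 and 66.8 RPKM in Het, and 52.0, 47.7, 47.1 and 58.8 RPKM in WT libraries. For all 3 chains KO library 6 was the lowest of the 10 libraries and KO library 12 the highest, so the KO group alone spanned the whole range. The fitted log2 differences of KO against WT were 0.11 ± 0.19 for C1qa, -0.02 ± 0.13 for C1qb and -0.16 ± 0.18 for C1qc (± SE). Each had an adjusted p of 0.999 in limma. Without KO library 6 they were 0.38 for C1qa, 0.12 for C1qb and 0.11 for C1qc, which turns the sign of C1qb and C1qc, and none was called. In library 6, C1q took 0.307% of all reads, the lowest share, with a highest of 0.466% elsewhere; the part of its neutrophil markers in this was not tested.

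C1qa was far lower than its partners. The ratio of C1qb to C1qa RPKM ranged from 26.2, in KO library 12, to 41.6, with a median of 35.6. C1qc to C1qb, by contrast, stayed near 1, from 0.801 in KO library 6 to 1.11, with a median of 1.02. The gap exceeded any difference between libraries and was present in all 10. The gene lengths behind the RPKM values were alike: 1082 bases for C1qa, 1062 for C1qb and 1054 for C1qc. The annotated transcripts hold 59.5%, 57.4% and 57.5% G and C, and they are 60.8% to 62.8% identical in pairs, with no identical run longer than 15 bases. The gap rested on 893 reads of C1qa or more in a library. The authors' annotation and assignment of reads to C1qa are not known here, and their part in the gap was not tested. All 3 chains averaged higher in the 4 deeper libraries than in the 6 shallower ones. The means were 63.8 against 48.5 RPKM for C1qa, 1942 against 1781 RPKM for C1qb and 2045 against 1737 RPKM for C1qc. C1qa lay between 51.2 and 78.3 RPKM in the deeper libraries and between 42.7 and 54.2 RPKM in the shallower ones. With the library read total as a term, the KO against WT log2 difference of C1qa was -0.03 in place of 0.11. That of C1qb was -0.07 in place of -0.02, and that of C1qc -0.27 in place of -0.16. The part of depth in these levels was not tested.

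The C1q genes lie side by side on chromosome 4 of mouse build GRCm38 (mm10), all on the minus strand and each with 3 exons. C1qb occupies chr4:136880129-136886187, C1qc chr4:136889804-136893065 and C1qa chr4:136895917-136898803. The gaps between them are 3.6 and 2.9 kb, and the whole locus is 18.7 kb long. The sequences before the starts of C1qb and C1qc are shown because these neighbours had nearly the same RNA level. They are from RefSeq for GRCm38.p6, minus strand, at chr4:136886201-136886450 for C1qb and chr4:136893066-136893164 for C1qc, cut so that no base of an annotated transcript is included. Capitals mark CTTCCTC, the reverse of GAGGAAG, a form of the letters bound by the myeloid factor PU.1.
C1qb: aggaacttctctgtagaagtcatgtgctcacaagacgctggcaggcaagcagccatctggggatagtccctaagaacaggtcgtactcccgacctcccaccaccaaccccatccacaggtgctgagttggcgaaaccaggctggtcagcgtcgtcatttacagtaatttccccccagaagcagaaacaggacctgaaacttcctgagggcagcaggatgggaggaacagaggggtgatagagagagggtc
C1qc: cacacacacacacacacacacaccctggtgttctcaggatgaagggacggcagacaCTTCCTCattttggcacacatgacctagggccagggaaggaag
The match in C1qc lies 194 to 188 bases before its RefSeq start, and the C1qb window holds no match to all 7 letters. The shorter GAGGAA does occur in the C1qb window. GAGGAAG was found, on either strand, in 10.6% of 32851 windows of 250 bases and in 2 of the 6 members with a window, C1qc and Itgam. A match of letters is a description of the sequence and not a measured site.

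C4b, the mouse gene for complement C4, was the lowest of the 9. It stood at 2.38, 2.44 and 2.19 RPKM in KO libraries 6, 9 and 12, at 2.47, 3.28 and 1.83 RPKM in Het libraries 5, 8 and 11, and at 2.58, 1.33, 1.64 and 3.28 RPKM in WT libraries 1, 4, 7 and 10. The KO libraries sat within the WT range, and WT libraries alone spanned that of all 10. The log2 difference of KO against WT was 0.16 ± 0.26 (SE), with an adjusted p of 0.999 in limma. C4b is on chr17:34728380-34743882, minus strand, close to its near copy C4a, known in mice as sex-limited protein. The annotated transcripts of the pair are 96.1% identical, with a run of 433 identical bases, so reads could be assigned to either and the split between them is uncertain. As counted by the authors, C4a had 2 to 19 reads in a library, and the ratio of C4b to C4a RPKM ranged from 20.9 to 81.0.

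C3, the component on which all complement routes converge, was the one member with an interval above 0 in KO libraries, and 1 library decided it. C3 stood at 12.7, 2.83 and 2.87 RPKM in KO libraries 6, 9 and 12, at 3.20, 2.50 and 2.64 RPKM in Het libraries 5, 8 and 11, and at 2.22, 1.82, 1.91 and 4.22 RPKM in WT libraries 1, 4, 7 and 10. KO library 6 had more than all others, while KO libraries 9 and 12 lay above WT libraries 1, 4 and 7 and below WT library 10. The log2 difference of KO against WT was 1.01 ± 0.32 (SE; unadjusted p = 0.00966, adjusted p = 0.937 in limma), and therefore not called. Without KO library 6 it was 0.42 ± 0.27 (unadjusted p = 0.147, adjusted p = 0.818 in limma). Leaving out any other library gave 0.83 to 1.20. The sign of the difference was not the same in the 2 depth classes. Among the deeper libraries the log2 difference was -0.49. The mean was 2.85 RPKM in 2 KO libraries, against 4.22 RPKM in WT library 10. Among the shallower ones it was 2.41, with 12.7 RPKM in KO library 6 and a mean of 1.99 RPKM in 3 WT libraries. The ranges of the classes overlapped, at 2.64 to 4.22 RPKM in the deeper and 1.82 to 12.7 RPKM in the shallower libraries. KO library 6 was the only shallower KO library and WT library 10 the only deeper WT library. Depth and these libraries therefore cannot be told apart. C3 had 1259 reads in KO library 6, so its level there is not a matter of few counts.

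The same KO library 6 held the high neutrophil markers given above, and neutrophil genes were among those whose pattern was most like that of C3. After removing genotype and sex, the Pearson correlation with C3 over the 10 libraries was highest for Ifitm6 (r = 0.985), Ngp (0.980), Cep135 (0.978), Chil3 (0.951) and Retnlg (0.947), among 4990 genes with a mean of at least 10 RPKM. These are descriptions over 10 points that share their libraries and depth. With library 6 left out, over 9 libraries, the same correlations were 0.945, 0.927, 0.914, 0.802 and 0.838. Ngp, a neutrophil granule protein gene, stood at 256 RPKM in library 6, against 12.9 to 56.3 RPKM in the other 9 libraries. Chil3, a gene of neutrophils and monocytes, stood at 76.6 RPKM in it, against 2.19 to 10.4 RPKM. In KO libraries 9 and 12 the marker sums also lay above those of the WT libraries. Their C3 lay above WT libraries 1, 4 and 7 and below WT library 10. The part of the neutrophil markers in the C3 level was not tested.

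**Figure D3:**
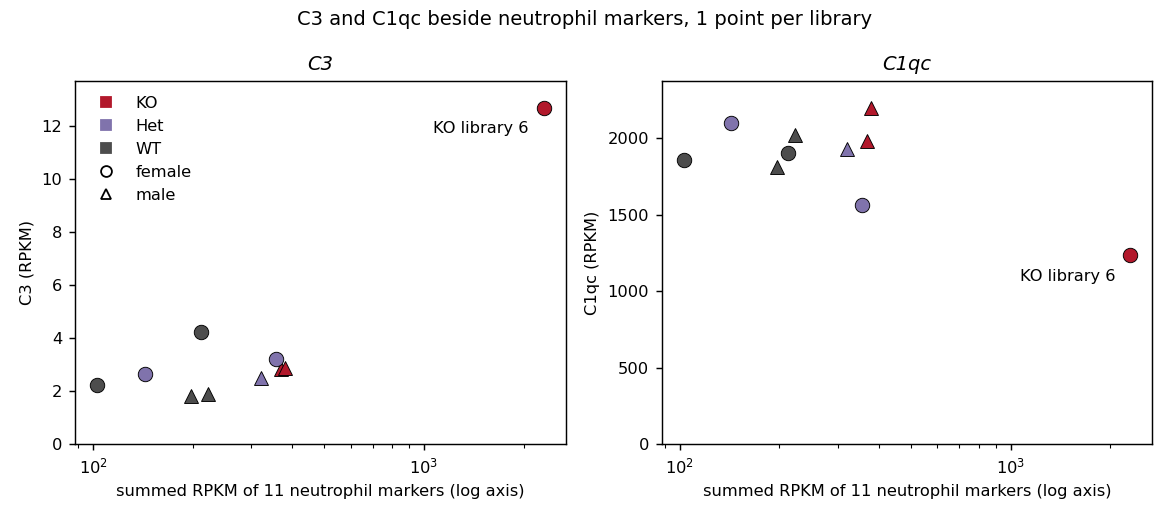
C3 (left) and C1qc (right) in RPKM on linear axes against the summed RPKM of 11 neutrophil markers on a log axis, 1 point for each of the 10 libraries, coloured by genotype, with circles for female and triangles for male libraries. KO library 6 stands at 2296 RPKM of neutrophil markers with 12.7 RPKM of C3 and 1234 RPKM of C1qc, and the other 9 libraries lie between 103 and 379 RPKM of these markers.

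C3 spans chr17:57203970-57228136 on the minus strand, in 41 exons, 8.85 Mb from Trem2 on the same chromosome. Its sequence before the start is shown because C3 was the most variable member. It is from RefSeq for GRCm38.p6, minus strand, at chr17:57228137-57228386, and capitals mark TTGCGAAA, a match on the reverse strand to TTNNGCAA, letters bound by C/EBP factors of myeloid cells.
C3: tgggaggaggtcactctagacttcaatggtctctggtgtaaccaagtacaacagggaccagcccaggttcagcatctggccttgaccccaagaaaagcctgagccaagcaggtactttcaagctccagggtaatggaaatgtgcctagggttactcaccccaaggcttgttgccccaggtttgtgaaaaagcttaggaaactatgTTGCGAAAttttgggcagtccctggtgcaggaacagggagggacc
The match lies 45 to 38 bases before the start, and 9.56% of all 32851 windows hold one.

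Neither peptide receptor passed the test between genotypes. C3ar1, the receptor for C3a, stood at 172, 180 and 183 RPKM in KO libraries 6, 9 and 12, at 176, 186 and 201 RPKM in Het libraries 5, 8 and 11, and at 202, 171, 185 and 191 RPKM in WT libraries 1, 4, 7 and 10. C5ar1, the receptor for C5a, stood at 64.4, 73.5 and 88.6 RPKM in KO, 69.4, 91.2 and 72.4 RPKM in Het, and 91.8, 59.7, 74.2 and 81.2 RPKM in WT libraries, in the same order. The KO values of both lay within the WT range, and C5ar1 varied more from library to library than C3ar1. The log2 difference of KO against WT was -0.06 ± 0.09 for C3ar1 and -0.02 ± 0.16 for C5ar1 (± SE; adjusted p = 0.999 for both in limma). Without KO library 6 they were 0.006 for C3ar1 and 0.13 for C5ar1, both with the sign turned. C3ar1 lies at chr6:122847138-122856161 and C5ar1 at chr7:16246743-16259540, both on the minus strand.

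The chains of complement receptor 3 were not called either. Itgam, its ligand-binding chain, stood at 879, 765 and 825 RPKM in KO libraries 6, 9 and 12, at 858, 788 and 884 RPKM in Het libraries 5, 8 and 11, and at 676, 1054, 839 and 892 RPKM in WT libraries 1, 4, 7 and 10. Itgb2, the chain it shares with other leukocyte integrins, stood at 139, 124 and 130 RPKM in KO, 135, 128 and 131 RPKM in Het, and 133, 121, 126 and 135 RPKM in WT libraries. WT libraries 1 and 4 were the lowest and the highest of all 10 for Itgam, so the WT group alone spanned its range. The log2 difference of KO against WT was -0.06 ± 0.15 for Itgam and 0.04 ± 0.08 for Itgb2 (± SE; adjusted p = 0.999 for both in limma), and -0.16 and 0.03 without KO library 6. Itgam was above Itgb2 in every library, by a ratio of 5.08 to 8.70 with a median of 6.36. Since the cells were selected by CD11b, Itgam says how much of its RNA the selected cells held and nothing of cells that escaped the beads.

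Itgb2 was one of the steadiest genes measured. Its SD of log2 values after removing genotype and sex was 0.0352, at percentile 0.0514 of all genes tested and at percentile 0.545 of the 550 genes within 2-fold of its level. Its highest library was 1.15 times its lowest. C3ar1 came next with an SD of 0.0910 (percentile 4.96), followed by C1qb (0.133), Itgam (0.201), C1qc (0.243), C5ar1 (0.256) and C1qa (0.310), where the median of all genes was 0.230. C4b (0.376) and C3 (0.508, percentile 92.2) were the most variable and also the lowest in level. C1qa varied more than most genes of its level, at percentile 92.3 of 1704 such genes.

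Itgam is on chr7:128062640-128118491 and Itgb2 on chr10:77530252-77565708, both on the plus strand. Itgam overlaps the predicted gene Gm49368 in this annotation, and how reads of the overlap were assigned is not known here. The sequence before Itgam is shown as the second of the members that hold GAGGAAG, in capitals here, 84 to 78 bases before the start. It is from RefSeq for GRCm38.p6, plus strand, at chr7:128062390-128062639.
Itgam: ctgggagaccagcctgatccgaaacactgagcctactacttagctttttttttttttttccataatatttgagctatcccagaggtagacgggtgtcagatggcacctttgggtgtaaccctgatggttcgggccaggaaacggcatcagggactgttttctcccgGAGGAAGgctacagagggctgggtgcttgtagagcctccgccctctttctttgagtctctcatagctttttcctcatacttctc
TATAAA, the TATA box letters, was found in 12.4% of windows and in the window of 1 of the 6 members, C3ar1, 235 to 230 bases before its start.

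The second question was whether losing 1 copy of Trem2 is enough. Het and WT libraries were compared in the same fit, with the WT libraries shared with the first comparison. None of the 9 genes passed: limma called 0 of 9, against 0% of all genes tested, and 0 of 9 passed at an unadjusted p under 0.05, against 2.75% of all genes. Het and WT libraries overlapped for all 9, where 4.53% of all genes did not overlap. The log2 differences ran from -0.02 for Itgam (0.990-fold) to 0.16 for C4b (1.12-fold), with a median of 0.02 over the members and 0.00 over all genes, and every adjusted p was 1.000. The confidence interval of the Het to WT ratio was 0.895 to 1.13 for Itgb2, 0.869 to 1.15 for C3ar1, 0.827 to 1.23 for C1qb, 0.768 to 1.31 for C1qc and 0.620 to 1.66 for C3. C3 averaged 2.78 ± 0.374 RPKM in Het and 2.54 ± 1.13 RPKM in WT libraries (SD; n = 3 and 4). Trem2 itself was at 0.493-fold in Het libraries (log2 difference -1.02 ± 0.14 SE), with an adjusted p of 0.238 in limma, and was not called either.

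KO and Het libraries were then compared, and the genotypes were also fitted as an ordered series by how many Trem2 copies were lost. In KO against Het, limma called 0 of 9 (0.00734% of all genes tested), and 1 of 9, C3, passed at an unadjusted p under 0.05 (3.35% of all genes), with a log2 difference of 0.99 ± 0.35 (SE; unadjusted p = 0.0173, adjusted p = 0.999 in limma) that was 0.33 without KO library 6. No member's KO and Het libraries were apart, against 7.42% of all genes. The slope likewise gave 0 of 9 calls (0.00734% of all genes), and C3 alone passed at an unadjusted p under 0.05 (5.43% of all genes), with 0.47 ± 0.17 per lost copy on the log2 scale (adjusted p = 0.850 in limma) and 0.19 without KO library 6. Across 0, 1 and 2 lost copies the mean of C3 was 2.54, 2.78 and 6.13 RPKM, with the step in the last group resting on library 6. The other 8 genes had slopes between -0.07 (C1qc) and 0.08 (C4b) on the log2 scale.

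Sex was a term of the same fit. Male against female, limma called 0 of 9 members (0.0440% of all genes tested), and 1 of 9, C3, passed at an unadjusted p under 0.05 (5.34% of all genes). C3 averaged 2.39 ± 0.497 RPKM in the 5 male and 5.00 ± 4.37 RPKM in the 5 female libraries (SD), a log2 difference of -0.87 ± 0.27 (SE; adjusted p = 0.919 in limma). Without KO library 6 the female mean was 3.07 RPKM and the log2 difference -0.43.

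Within each sex the KO against WT differences of the C1q chains had opposite signs. In males, KO libraries 9 and 12 against WT libraries 4 and 7, the log2 difference was 0.41 for C1qa, 0.14 for C1qb and 0.12 for C1qc. In females, KO library 6 against WT libraries 1 and 10, it was -0.37 for C1qa, -0.28 for C1qb and -0.61 for C1qc. C5ar1 was at 0.28 in males and -0.42 in females, C4b at 0.51 and -0.24, and C3 at 0.50 and 1.88. A test of the difference between the sexes (an interaction term, added after these values were seen) called 0 of 9 members in limma, where 0.0147% of all genes were called. The term is the KO against WT log2 difference in males minus that in females. It was -1.379 for C3, -0.422 for Itgam and -0.019 for Itgb2. For the C1q chains it was 0.783 (C1qa), 0.423 (C1qb) and 0.733 (C1qc). C4b was at 0.750, C5ar1 at 0.695 and C3ar1 at 0.223. The only female KO library is library 6, so sex and that library cannot be told apart in this term.

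The C1q chains had neighbours in pattern that were not complement genes. After removing genotype and sex, the mean log2 level of the 3 chains had its highest Pearson correlations over the 10 libraries with Cyth4 (0.986), Pfn1 (0.982), Rac2 (0.981), Tpst2 (0.980) and Csad (0.979). Without KO library 6, over 9 libraries, they were 0.951 to 0.987. Pfn1 encodes the actin-binding protein profilin and Rac2 a small GTPase of blood cells; Pfn1 averaged 261 RPKM in KO and 198 RPKM in WT libraries. For C4b the most alike were Ppp1r15b (0.966), Mob3a (0.960), Ets2 (0.955), Stau1 (0.948) and F13a1 (0.943). The points share library and depth, and the genes named are the highest of 4990, so these values describe the libraries.

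The rest of the complement system gave no call either. Of 59 other complement genes listed by role, 57 were in the files and 29 passed the filter, and limma called 0 of the 29 in KO against WT and in Het against WT. At an unadjusted p under 0.05 there were 3 of 29 in KO against WT, against 5.13% of all genes in either direction. In Het against WT there was 1 of 29, against 2.75% of all genes. All of these were lower. At that threshold 1.81% of all genes were lower in KO against WT and 1.35% in Het against WT. The 3 in KO against WT were Cfd, Cr1l and Itgax, and without KO library 6 none of these passed that threshold. The count in KO against WT was then 1 of 29, and it was also 1 of 29 without WT library 1, 4 or 10 and with sample quality weights. The median log2 difference of the 29 was -0.01 in KO against WT, with 13 above 0 and 16 below, and -0.06 in Het against WT, with 9 above 0 and 20 below.

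Among the regulators, Cr1l, the membrane regulator of C3 cleavage known as Crry in mice, stood at 35.2, 55.7 and 48.6 RPKM in KO libraries 6, 9 and 12, at 44.0, 47.3 and 50.7 RPKM in Het libraries 5, 8 and 11, and at 49.5, 65.3, 55.0 and 50.4 RPKM in WT libraries 1, 4, 7 and 10. Its groups overlapped, with KO library 6 the lowest of the 10. The log2 difference of KO against WT was -0.30 ± 0.12 (SE; unadjusted p = 0.0310, adjusted p = 0.968 in limma), and -0.15 without KO library 6 (unadjusted p = 0.282, limma). Clu and Vtn, which restrain the terminal complex, averaged 16.8, 22.0 and 17.9 RPKM and 9.00, 10.1 and 8.35 RPKM in KO, Het and WT libraries. Csmd3, a large membrane protein with complement control domains, averaged 37.3, 34.7 and 37.7 RPKM, and Cd59a, which blocks the membrane attack complex, 6.03, 6.71 and 6.10 RPKM.

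Initiating and amplifying proteases were scarce. C2 averaged 1.06, 0.993 and 0.698 RPKM and the protease gene C1s1 0.400, 0.405 and 0.445 RPKM in KO, Het and WT libraries. In the alternative pathway, Cfp, which encodes the stabilising protein properdin, averaged 4.38 ± 0.977, 4.43 ± 1.59 and 2.94 ± 0.819 RPKM (SD; n = 3, 3 and 4), with log2 differences of 0.52 ± 0.27 in KO and 0.51 ± 0.27 in Het against WT (± SE), neither called. Cfb averaged 2.55, 2.41 and 2.45 RPKM. Cfd, the protease that cleaves factor B, stood at 0, 0.113 and 0.161 RPKM in KO libraries 6, 9 and 12, at 0.175, 0.245 and 0.900 RPKM in Het libraries 5, 8 and 11, and at 0.575, 0.632, 0.292 and 0.383 RPKM in WT libraries 1, 4, 7 and 10. These values rest on 0, 4 and 6 reads in KO libraries 6, 9 and 12. Cfd passed the filter only through WT libraries 1 and 4 and Het library 11, and no KO library reached it, so its lower KO level is a description and no support for a difference. The fitted log2 difference of KO against WT was -0.70 (unadjusted p = 0.0412, adjusted p = 0.969 in limma), -0.50 without KO library 6 (unadjusted p = 0.206, limma), -0.42 and -1.67 at pseudocounts of 1 and 0.1, and -2.28 by limma-voom on reads.

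In the lectin pathway, Masp1, a protease of the recognition complexes, was lower in each Het library than in the others. It stood at 1.58, 1.37 and 1.33 RPKM in KO libraries 6, 9 and 12, at 0.806, 0.701 and 0.900 RPKM in Het libraries 5, 8 and 11, and at 1.84, 1.58, 1.02 and 1.78 RPKM in WT libraries 1, 4, 7 and 10. The Het range did not overlap with either of the other genotypes, while KO and WT overlapped. Of all genes tested, 4.53% did not overlap in Het against WT and 7.42% in KO against Het. The Het values rest on 41, 34 and 92 reads in libraries 5, 8 and 11. In Het against WT the log2 difference was -0.68 ± 0.19 (SE; unadjusted p = 0.00431, adjusted p = 1.000 in limma), and it was not called. Colec12 averaged 2.05, 2.05 and 1.82 RPKM and Fcna, a ficolin of mouse macrophages, 0.847, 1.20 and 0.881 RPKM in KO, Het and WT libraries. Fcnb, named after its values were seen, stood at 4.92 RPKM in KO library 6 and at 0 to 0.714 RPKM in the other 9 libraries. No gene of the terminal pathway passed the filter, of 7 listed; C7 was at 0 in all 10 libraries and Hc, the mouse gene for C5, reached 0.0722 RPKM at most.

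Among other receptors, Lair1, an inhibitory receptor that binds C1q, averaged 286, 266 and 275 RPKM in KO, Het and WT libraries, Calr, which encodes calreticulin, 171, 168 and 169 RPKM, and Lrp1, an endocytic receptor, 95.2, 95.1 and 105 RPKM. Itgax, the ligand-binding chain of complement receptor 4, stood at 4.90, 3.85 and 4.10 RPKM in KO libraries 6, 9 and 12, at 5.33, 5.45 and 4.97 RPKM in Het libraries 5, 8 and 11, and at 6.90, 6.02, 4.46 and 10.8 RPKM in WT libraries 1, 4, 7 and 10. The KO and Het libraries did not overlap, as was so for 7.42% of all genes tested. Both overlapped with WT, whose library 10 was the highest. In KO against WT the log2 difference was -0.54 ± 0.20 (SE; unadjusted p = 0.0229, adjusted p = 0.942 in limma), and -0.50 without KO library 6 (unadjusted p = 0.0826, limma). Itgam exceeded Itgax 82.6 to 201 times.

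**Figure D4:**
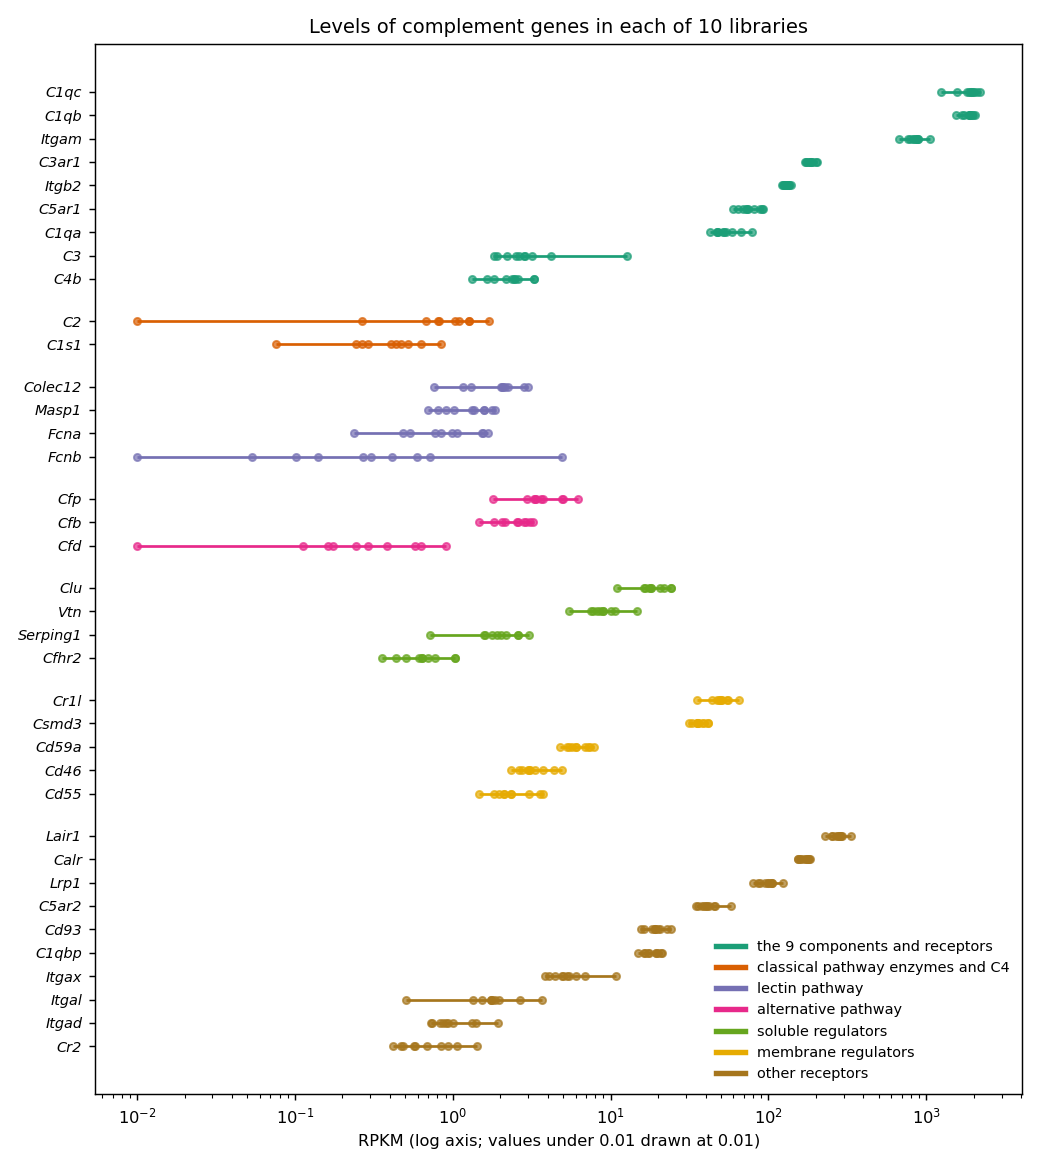
RPKM of the 9 complement genes and of 28 of the 29 other complement genes that passed the filter, grouped by role, on a log axis; each point is 1 of the 10 libraries and each line spans them, with values under 0.01 drawn at 0.01. C1qc and C1qb are the highest, Lair1 and Calr lie near C3ar1, and the initiating enzymes and most lectin pathway genes lie near or under 1 RPKM.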

How the data were processed

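RNA from CD11b-isolated microglia of 10 libraries was used. The deposited files hold RPKM, computed by the authors on a linear scale with 1 value per gene and library. The submitters' processing notes name STAR, HTSeq, edgeR, limma and mm10; no source used here gives their order or the annotation. Of 24060 gene names, 27 that a spreadsheet had turned into dates were left out. For all 20008 genes above 0 (100% of them), values were whole multiples of 1 read within 0.002 reads or a relative 3e-07, which gave reads per gene and library. Intervals on reads would cover counting error only.

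Values were fitted as log2(RPKM + 0.5) in limma 3.58.1 (R 4.3.3, limma-trend) with genotype and sex, for 13621 genes that reached 0.5 RPKM in 3 or more libraries. Tests were two-sided, with Benjamini-Hochberg adjustment over all genes tested and a threshold of 0.05. The fit was checked on simulated data. Alternatives were other pseudocounts (0.1 and 1), other filters, no sex term, read total as a term, median-ratio scaling, limma-voom on the recovered reads, sample quality weights, 2 genotypes alone and leaving out each library. On the recovered reads, limma-voom also called 0 of the 9 genes. The sex interaction and the within-depth differences were added after the data had been seen. Coordinates and exons are from GENCODE M21 on GRCm38, which may not be the authors' annotation.

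The members and lists were chosen with earlier results of these data known. Beyond the 9 genes, the text names the 3 highest genes of each role, those with an unadjusted p under 0.05 in KO or Het against WT, and, for C1q, C3 and C4b, the 5 most correlated genes with a mean of at least 10 RPKM, clone and predicted-gene names left out. The result of 1 of the other complement genes is not reported here.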

Additional observations from a re-analysis of the deposited data

Results flagged for a closer look

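C3 in the WT libraries was marked because 1 library stood far from the others of its group. It was at 4.22 RPKM in WT library 10, against 2.22, 1.82 and 1.91 RPKM in WT libraries 1, 4 and 7, and the gap to the nearest was 0.834 of the whole WT range, just past Dixon's critical value for 4 samples. Chance marks about 1 in 20 groups, and 9 genes were looked at. WT library 10 was the deepest of the WT libraries. Without it the KO against WT log2 difference of C3 was 1.09, with 1.01 in all libraries.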

How the results depend on the processing

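The count of members called was 0 of 9 under all 20 other settings, 10 of which left out 1 library, for KO against WT, Het against WT, KO against Het, the slope and male against female (2 genotypes alone do not apply to the slope or to sex). The sex interaction was fitted only over all 10 libraries with the main settings. Leaving that interaction aside, the lowest adjusted p of a member in any of these limma settings was 0.513, and 0 of the 29 other complement genes were called either. No paired analysis was run because the labels state no pairing of libraries between genotypes. Of 38 single-gene log2 differences, 25 changed sign in at least 1 setting; the largest of these was 0.164 in size, so the direction of such small differences is not settled. C3 in KO against WT ranged from 0.42 (without KO library 6) to 1.20 over the leave-outs and was 1.23 by limma-voom (adjusted p = 0.524) and 0.71 with sample quality weights (adjusted p = 0.619). The cause of the sign changes was not tested.

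With the read total as a term, C1qa was -0.026 in KO against WT, and C3 was -0.039 and C3ar1 0.011 in Het against WT. Without the sex term, Het against WT gave -0.003 for C1qb, -0.036 for C1qc and 0.006 for C3ar1. With quality weights, Masp1 was 0.050 in KO against WT, Het against WT gave -0.025 for C1qb, -0.036 for C1qc, -0.071 for C5ar1, 0.045 for Itgam, -0.002 for Itgb2 and -0.013 for C4b, and KO against Het gave 0.009 for C1qb and 0.129 for C4b. With 2 genotypes alone, Het against WT gave -0.003 for C1qb and -0.028 for C1qc, and KO against Het 0.013 for Itgam. By limma-voom, Het against WT gave -0.143 for C3, 0.002 for C3ar1 and -0.021 for C4b, and KO against Het 0.146 for C4b. Median-ratio scaling gave 0.001 for C3ar1 in Het against WT, and a pseudocount of 0.1 gave 0.007 for C4b in KO against Het.

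Leaving out 1 library at a time, KO against WT spanned -0.129 to 0.382 for C1qa, -0.104 to 0.123 for C1qb, -0.280 to 0.111 for C1qc, -0.109 to 0.006 for C3ar1, -0.184 to 0.129 for C5ar1, -0.169 to 0.065 for Itgam, -0.022 to 0.307 for C4b and -0.158 to 0.041 for Masp1. Het against WT spanned -0.013 to 0.232 for C1qa, -0.047 to 0.050 for C1qb, -0.127 to 0.093 for C1qc, -0.348 to 0.194 for C3, -0.046 to 0.051 for C3ar1, -0.143 to 0.160 for C5ar1, -0.157 to 0.081 for Itgam, -0.018 to 0.026 for Itgb2, -0.225 to 0.367 for C4b and -0.203 to 0.089 for Cfd. KO against Het spanned -0.238 to 0.289 for C1qa, -0.092 to 0.126 for C1qb, -0.276 to 0.139 for C1qc, -0.107 to 0.016 for C3ar1, -0.161 to 0.140 for C5ar1, -0.156 to 0.006 for Itgam and -0.192 to 0.432 for C4b.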
